A study of Mus musculus with 4 samples.

Results

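The replication-dependent histone genes are the clustered genes whose symbols begin with Hist1h, Hist2h, Hist3h or Hist4h. By that rule 69 genes were found among 55414 gene identifiers, of which 52081 carried a symbol. They comprised 6 linker histone H1 genes, 20 H2A genes, 18 H2B genes, 12 H3 genes and 13 H4 genes. The Hist1 cluster on mouse chromosome 13 held 56 of them, the Hist2 cluster on chromosome 3 held 10, the Hist3 cluster on chromosome 11 held 2, and Hist4h4 was on chromosome 6. RNA sequencing counts were compared between primary neural stem cells of 2 genotypes, Mettl4 knockout and wild type, with 2 libraries each. Mettl4 encodes an adenosine methyltransferase. The series relates its loss to the growth, differentiation and RNA splicing of these cells, and the histone genes bear on growth because cells use them while copying DNA.

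All 4 libraries came from cerebral cortex of E14.5 embryos. In both genotypes the cells were grown first as floating neurospheres and then as an adherent monolayer, in medium with EGF, bFGF, N2 supplement and B27 supplement without vitamin A. How the knockout was made, which part of Mettl4 it removes and whether it covers the whole animal were points not given in the sources used here. The labels do not say whether the libraries of a genotype came from separate embryos or cultures, and p-values therefore measure only how these libraries varied, a spread that may be technical.

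Nucleosomes wrap DNA around an octamer of the core histones H2A, H2B, H3 and H4, and the linker histone H1 binds where the DNA enters and leaves. Most of this protein is made during S phase from intronless genes that lie in clusters, many of them as divergent H2A and H2B pairs that share the DNA between their starts. Their mRNAs are the main animal mRNAs without a poly(A) tail: a conserved stem-loop shortly after the stop codon is bound by the stem-loop binding protein Slbp, and the U7 snRNP directs the cut just downstream. Replication-independent histones such as H2A.Z and H3.3 come from separate polyadenylated genes.

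The stem-loop is what sets these mRNAs apart, so it is shown for an abundant member of each class and for members whose values are given further on. The pattern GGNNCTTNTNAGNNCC was searched on the sense strand in the first 100 bases after each annotated stop codon. The transcripts are those of GENCODE M21 (GRCm38). Capitals mark the 16 bases that match, with 5 bases on either side, written 5′ to 3′.

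Hist1h1c (H1): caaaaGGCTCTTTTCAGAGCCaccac
Hist1h2ag (H2A): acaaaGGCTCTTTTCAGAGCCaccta
Hist2h2aa1 (H2A): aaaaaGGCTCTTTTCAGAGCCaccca
Hist2h2ac (H2A): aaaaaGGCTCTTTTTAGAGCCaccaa
Hist3h2a (H2A): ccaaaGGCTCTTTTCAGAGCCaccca
Hist1h2bk (H2B): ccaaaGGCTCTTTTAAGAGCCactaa
Hist3h2ba (H2B): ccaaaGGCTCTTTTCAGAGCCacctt
Hist1h3f (H3): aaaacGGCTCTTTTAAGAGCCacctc
Hist1h4n (H4): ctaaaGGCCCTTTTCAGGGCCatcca
Hist1h4b (H4): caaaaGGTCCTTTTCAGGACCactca

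The stem-loop was found in 46 of the 69 members, against 8 of 50944 other coding transcripts (0.0157%). At least 30 bases after the stop codon were annotated for 52 members. Of these, 6 had no match in the window, namely Hist2h2be, Hist2h3b, Hist1h2bq, Hist1h2br, Hist1h2bc and Hist1h1a. The form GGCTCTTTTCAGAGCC was the most frequent, in 26 members: 3 H1, 10 H2A, 8 H2B and 5 H3 genes. The form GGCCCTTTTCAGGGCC occurred in 7 members, which were H4 genes without exception. No match says only that these letters are not in the window.

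The cells in these libraries carried the markers of their label. Summed over 12 neural stem cell markers, such as Nes, Sox2 and Fabp7, the level was 6908 and 7327 CPM (counts scaled to the library total) in the knockout libraries, against 6904 and 7174 CPM in the wild type libraries. The sums of 2 microglial and of 2 endothelial markers stayed below 1 CPM in each library. Over the 4 libraries, 4 neuronal markers summed to 14.8 to 22.0 CPM and 2 astrocyte markers to 27.2 to 36.5 CPM. The 2 oligodendrocyte lineage markers differed. Olig2 was at 526.7 and 481.7 CPM in the knockout, against 455.0 and 453.3 CPM in the wild type. Sox10 was at 3.36 and 2.38 CPM in the knockout, against 0.546 and 1.30 CPM in the wild type. Library totals were 18150389 and 19310668 counts in the knockout and 12812064 and 16883734 in the wild type. From here on CPM are scaled by TMM, which corrects library totals for composition. Mettl4 itself stood at 15.6 and 17.6 CPM in the knockout libraries, against 63.8 and 66.6 CPM in the wild type libraries, a log2 fold change of -1.97 ± 0.17 (SE; adjusted p = 0.0051, edgeR quasi-likelihood test). Wild type replicate 1 stood apart in Xist, the RNA of the inactive X chromosome, with 3784 counts against 54699 to 65857 in the other 3 libraries, and the part of this in the results below was not tested.

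Histone genes made up a large part of the RNA measured in both genotypes. Their summed share was 4.51% of all counts in knockout replicate 1 and 5.04% in knockout replicate 2, against 4.73% in wild type replicate 1 and 5.81% in wild type replicate 2. The mean was 4.78% ± 0.373 in the knockout and 5.27% ± 0.767 in the wild type (SD, n = 2 each). The groups overlapped, and the difference of -0.493 percentage points was smaller than the wild type SD. It ran to -1.04 percentage points without wild type replicate 1 and to 0.0492 without wild type replicate 2, with -0.230 without knockout replicate 1 and -0.757 without knockout replicate 2. Within each genotype, replicate 2 held the larger share. Fewer cells in S phase and less histone RNA per cell cannot be told apart in such bulk counts.

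The 5 classes did not contribute alike. H3 genes held 1.79% and 1.91% of the counts in the knockout libraries, against 2.01% and 2.21% in the wild type libraries. H4 genes held 0.603% and 0.6445% in the knockout, against 0.646% and 0.796% in the wild type. In both of these classes the knockout libraries lay below the wild type libraries, for H4 only by the third decimal. H2A genes held 1.215% and 1.42% in the knockout, against 1.21% and 1.49% in the wild type. H2B genes held 0.6325% and 0.736% in the knockout, against 0.585% and 0.960% in the wild type, the widest gap between libraries of a genotype among the classes. H1 genes held 0.276% and 0.332% in the knockout, against 0.279% and 0.350% in the wild type. For H1, H2A and H2B the groups overlapped.

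**Figure D1:**
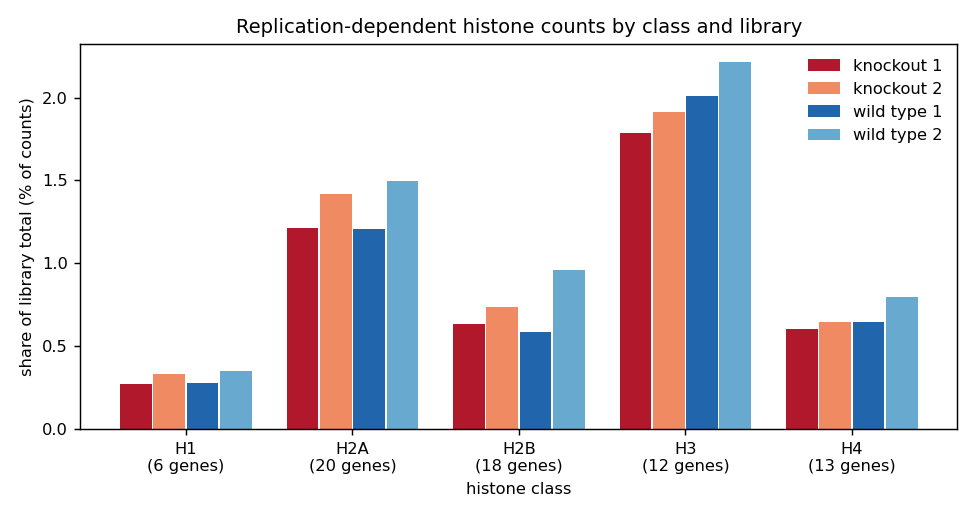
Share of all counts in a library (percent, vertical axis) for each histone class, with a bar for each library, knockout left of wild type. The H3 bars reach 1.79% and 1.91% in the knockout and 2.01% and 2.21% in the wild type, while the H2B bars run from 0.585% to 0.960% within the wild type.

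Long genes collect more counts, so the classes were also compared per kilobase of coding sequence, as summed TMM-scaled CPM per coding kb. The counts are per gene, and annotated bases outside the coding sequence were not divided out. Hist1h1d has 7425 exon bases and 666 coding bases, while Hist1h3i has 411 of each, so length was corrected only in part. H3 stood highest at 44760 ± 5459 in the knockout and 50480 ± 5750 in the wild type (SD, n = 2 each). H2A followed with 32330 ± 5604 in the knockout and 32930 ± 6247 in the wild type. H4 was at 20170 ± 2354 in the knockout and 23140 ± 4431 in the wild type, and H2B at 17890 ± 3169 in the knockout and 20070 ± 7717 in the wild type. H4 was above H2B in 4 of 4 libraries, by less than the spread between libraries of a genotype. H1 was lowest, at 4677 ± 933.8 in the knockout and 4791 ± 975.5 in the wild type. On this scale the H3 libraries stood at 40900 and 48620 in the knockout and at 46410 and 54540 in the wild type, so the separation of the genotypes seen in the H3 share was lost. That of H4 was lost too, with 18500 and 21830 in the knockout against 20010 and 26280 in the wild type. This scale also carries the TMM factors, 0.9477 for knockout replicate 2 and 1.036 for wild type replicate 1, which the shares do not. The H4 genes have 312 coding bases each, so dividing by length could not reorder their libraries. For H3 the median was 411 bases. The separation in the shares thus depended on how the libraries were scaled.

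Gene by gene, no histone gene was called different between knockout and wild type. Of the 69 members, 67 passed the filter on low counts and were tested. The testis-specific linker histone gene Hist1h1t had between 4 and 8 counts per library, and Hist1h2aa had 0 in each, which allows up to 0.155 to 0.234 CPM. Among the 67, 0 had an adjusted p under 0.05 (edgeR quasi-likelihood test, Benjamini-Hochberg over 19912 genes), where the background of all genes tested was 0.00502%, the single call being Mettl4. At an unadjusted p under 0.05 there were 0 members higher in the knockout, against a background of 1.15%, and 3 lower (Hist3h2ba, Hist3h2a and Hist2h2ac), against a background of 1.62%. DESeq2 and limma-voom also called 0 members, with 2 at an unadjusted p under 0.05 by DESeq2 (2.99%, against 1.46% of all genes) and 5 by limma-voom (7.46%, against 2.75%). The standard error of a member's log2 fold change had a median of 0.24 and its 95% interval reached a median of 0.53 to either side, which sets the precision for a typical member.

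The point estimates leaned below 0. Of the 67 tested members, 49 (73.1%) had a log2 fold change below 0, against a background of 50.3%, and the median was -0.12, against -0.00 over all genes tested. Among the 2079 other genes with at least 100 CPM, 38.0% were below 0, with a median of 0.04. Both knockout libraries lay below both wild type libraries for 13 members (19.4%, against a background of 14.8%) and above them for 0 (background 12.5%). For the other genes with at least 100 CPM these shares were 9.91% and 11.4%. By class, the median was -0.21 for H4 and -0.15 for H3, with 13 of 13 and 12 of 12 members below 0, and -0.23 for H2B, with 13 of 18. With DESeq2 size factors Hist1h4d turned to 0.0079, leaving 12 of 13 H4 members below 0. For H1 the median was -0.02, with 3 of 5 below 0. For H2A it was 0.01, with 8 of 19, and it turned to -0.01 with library totals alone.

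The lean changed with the library left out. Without wild type replicate 2 the fit gave 20 members below 0 and a median of 0.15, and without knockout replicate 1 it gave 32 members and a median of 0.03. Without wild type replicate 1 there were 66 members below 0, with a median of -0.28, and without knockout replicate 2 there were 64, with a median of -0.32. Without wild type replicate 2 the medians of H2B and H4 turned to 0.28 and 0.028. Scaling by library totals alone gave 55 members below 0, and scaling by DESeq2 size factors gave 47.

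**Figure D2:**
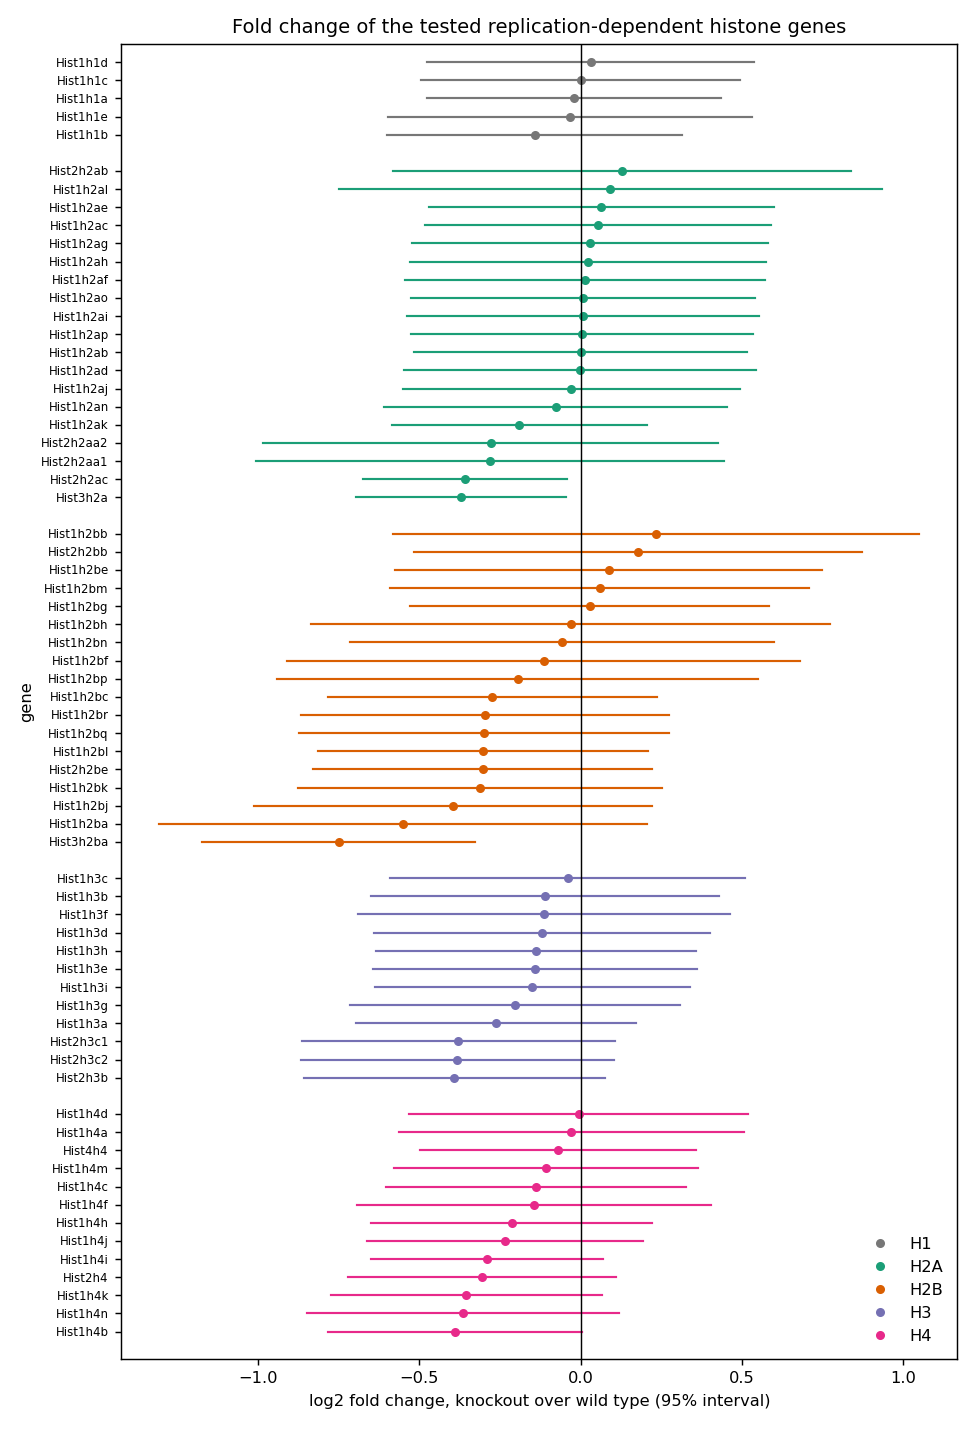
Log2 fold change, knockout over wild type, of each of the 67 tested histone genes (points) with its 95% interval (lines), grouped by class. Values run from -0.75 for Hist3h2ba to 0.235 for Hist1h2bb, and the intervals of Hist3h2ba, Hist3h2a and Hist2h2ac end below 0 before adjustment for the number of genes.

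H1 genes code for the linker histones that compact nucleosome arrays. Hist1h1b, the most abundant of them in CPM, was at 689 and 837 CPM in the knockout libraries and at 743 and 941 CPM in the wild type libraries. Hist1h1c was at 635 and 905 CPM in the knockout and at 689 and 851 CPM in the wild type. Hist1h1d was at 676 and 792 CPM in the knockout and at 568 and 866 CPM in the wild type. In each of these 3 genes the groups overlapped, and replicate 2 exceeded replicate 1 in both genotypes. Their log2 fold changes were -0.14, 0.00 and 0.03, with standard errors of 0.21 to 0.23.

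H2A genes code for the partner of H2B in the dimer on the outer face of the octamer. Hist1h2ag, the H2A gene with the highest level, was at 1370 and 1858 CPM in the knockout and at 1337 and 1828 CPM in the wild type, a log2 fold change of 0.03 ± 0.25 (SE). Hist1h2ah was at 1238 and 1688 CPM in the knockout, against 1204 and 1676 CPM in the wild type. Hist1h2ao was at 1017 and 1413 CPM in the knockout, against 1037 and 1381 CPM in the wild type. In all 3, same-numbered libraries of the genotypes lay closer together than the libraries of a genotype. The counts of Hist1h2ao and Hist1h2ap matched to between 100.0% and 100.6% in each library, and the values of this near-identical pair are uncertain.

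H3 carries the tail that bears much of the regulatory methylation and acetylation of chromatin, and H3 genes were the most abundant histone genes here. Hist1h3f was at 2485 and 3434 CPM in the knockout and at 2911 and 3493 CPM in the wild type. Hist1h3b was at 1843 and 2428 CPM in the knockout, against 2094 and 2516 CPM in the wild type. Hist1h3d was at 1616 and 2061 CPM in the knockout, against 1808 and 2188 CPM in the wild type. The groups overlapped for each of these, with log2 fold changes of -0.12 to -0.11 and standard errors of 0.23 to 0.26. Among the 12 H3 genes, both knockout libraries lay below both wild type libraries for 4, which were Hist1h3a and the Hist2 genes Hist2h3b, Hist2h3c1 and Hist2h3c2. Hist2h3b was at 1111 and 871.5 CPM in the knockout and at 1270 and 1330 CPM in the wild type, a log2 fold change of -0.39 ± 0.21 (SE; unadjusted p = 0.091 and adjusted p = 0.9999, edgeR). Unlike the Hist1 genes named above, it was lower in knockout replicate 2 than in knockout replicate 1.

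H4 is the most conserved core histone, and the 13 H4 genes coded for it with 12 different coding sequences. Hist1h4n was at 1070 and 1134 CPM in the knockout, against 1222 and 1617 CPM in the wild type, a log2 fold change of -0.36 ± 0.22 (SE). Hist1h4m was at 1092 and 1155 CPM in the knockout, against 1054 and 1367 CPM in the wild type, and Hist1h4d was at 552 and 835 CPM in the knockout, against 600.3 and 792 CPM in the wild type. The groups were separate for Hist1h4n and overlapped for the other two. Hist1h4b was at 322 and 319 CPM in the knockout and at 368 and 471 CPM in the wild type, a log2 fold change of -0.39 ± 0.18 (SE; unadjusted p = 0.052 and adjusted p = 0.9999, edgeR). Hist1h4k was at 284 and 335 CPM in the knockout and at 339 and 451 CPM in the wild type, a log2 fold change of -0.35 ± 0.19 (SE). For both genes the wild type libraries were the higher ones, and for Hist1h4k the nearest libraries of the genotypes differed by under 5 CPM. Across the class, 5 of 13 genes had separate groups.

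H2B genes showed the widest range of fold changes, from the lowest to the highest of all members. Hist1h2bk, the most abundant, was at 903 and 993 CPM in the knockout, against 879 and 1476 CPM in the wild type. Hist1h2bq was at 687 and 783 CPM in the knockout, against 659 and 1149 CPM in the wild type, and Hist1h2br was at 681 and 775 CPM in the knockout, against 653.5 and 1133 CPM in the wild type. The counts of Hist1h2bq were 100.9% to 101.4% of those of Hist1h2br, a near-identical copy. In these genes wild type replicate 2 stood above the other 3 libraries, which lay close together. Their log2 fold changes were -0.31, -0.30 and -0.30, with standard errors of 0.25 to 0.26. Hist1h2bb was at 376 and 668 CPM in the knockout, against 297 and 589 CPM in the wild type, a log2 fold change of 0.235 ± 0.36 (SE). Here both replicate 2 libraries stood above both replicate 1 libraries.

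These examples stood for a split within the Hist1 H2B genes, which was noticed in the values and is given as a description. In 6 genes (Hist1h2bj, Hist1h2bk, Hist1h2br, Hist1h2bq, Hist1h2bc and Hist1h2bl), knockout replicate 2 exceeded knockout replicate 1 by a log2 difference of 0.05 to 0.26, and wild type replicate 2 exceeded wild type replicate 1 by 0.64 to 0.96. In the other 9 the difference was 0.43 to 0.83 in the knockout and 0.63 to 1.09 in the wild type. The sets were divided at a knockout difference of 0.3. The log2 fold changes of the 6 genes lay between -0.40 and -0.27, and those of the 9 between -0.55 and 0.235 with a median of -0.03. A low knockout replicate 2 lowers both the knockout difference and the fold change, so this contrast in fold change is partly built in. With 2 libraries a genotype, a split by genotype and a split by library cannot be told apart.

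Divergent pairs let the classes be compared between neighbours. There were 13 H2A and H2B pairs with starts within 1000 bases and opposite directions, and in 12 both genes were tested. The H2B gene had the lower log2 fold change in 9 of the 12 pairs, with a median difference, H2B minus H2A, of -0.21. These pairs include every H2B gene of the smaller set in the split above, so they restate that split in part. Between the wild type libraries, replicate 2 exceeded replicate 1 by more in the H2B gene than in its H2A partner in 12 of 12 pairs, with a median log2 difference of 0.37. Between the knockout libraries the same held for 5 of 12. All pairs were read in the same libraries, so they are not replicates of a library difference. The pair of Hist1h2bq and Hist1h2ao and that of Hist1h2br and Hist1h2ap are also made of near-identical genes. The pair of Hist1h2ah and Hist1h2bk is an example: the log2 fold change was 0.02 for Hist1h2ah and -0.31 for Hist1h2bk, on either side of a shared promoter.

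The promoter between Hist1h2ah and Hist1h2bk is shown because these neighbours had unlike point estimates, though with overlapping intervals. The promoter of Hist3h2ba is shown because this gene had the lowest fold change. Both are RefSeq sequences of build GRCm38.p6, + strand, and give the 250 bases before the start of the H2B gene. Capitals mark the octamer ATTTGCAT, the known binding sequence of Oct-1 in H2B promoters, and the CCAAT box on either strand (CCAAT or ATTGG).

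Hist1h2bk (chr13:22035571-22035820): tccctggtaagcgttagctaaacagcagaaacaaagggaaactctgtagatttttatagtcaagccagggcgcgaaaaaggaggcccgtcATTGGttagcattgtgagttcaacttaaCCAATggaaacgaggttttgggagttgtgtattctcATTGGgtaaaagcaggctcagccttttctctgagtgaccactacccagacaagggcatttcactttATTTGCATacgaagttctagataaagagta
Hist3h2ba (chr11:58948661-58948910): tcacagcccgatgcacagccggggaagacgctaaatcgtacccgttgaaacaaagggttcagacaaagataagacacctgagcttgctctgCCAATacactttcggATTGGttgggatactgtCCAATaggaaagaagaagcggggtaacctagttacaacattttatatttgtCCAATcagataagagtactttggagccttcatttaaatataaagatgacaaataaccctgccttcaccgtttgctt

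The Hist1h2bk window held 3 CCAAT boxes and an octamer, and the Hist3h2ba window held 4 CCAAT boxes. Over 300 bases (250 before and 50 after the start), 61 members were matched in the RefSeq table, and both strands were searched. The octamer was found in 7 of 17 H2A and 7 of 17 H2B promoters (41.2% each), in 0 H1, H3 or H4 promoters, and in 1.74% of all 32851 promoters. The windows of divergent H2A and H2B neighbours overlap, so the same letters can be counted for both. The CCAAT box was in 100% of H1, H2A, H2B and H3 promoters and in 25.0% of H4 promoters, against 37.4% of all. The letters TATAAA were in 40.0% to 66.7% of promoters by class, against 13.6% of all. A match is a description, not a site or a cause.

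The 3 members with the lowest unadjusted p values lay outside the Hist1 cluster. Hist3h2ba (ENSMUSG00000056895), a low-level H2B gene, was at 19.7 and 17.9 CPM in the knockout libraries and at 28.3 and 34.9 CPM in the wild type libraries. Both knockout libraries were lower, and the gap to the wild type exceeded the difference between libraries of either genotype. Its log2 fold change was -0.75 ± 0.19 (SE; 95% interval -1.175 to -0.33, unadjusted p = 0.0027, adjusted p = 0.9999, edgeR quasi-likelihood test). Leaving out a library moved this between -0.89 and -0.58.

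Hist3h2a, the H2A gene of the same cluster, was at 164 and 172 CPM in the knockout, against 208 and 227 CPM in the wild type. Hist2h2ac, which codes for an H2A of the Hist2 cluster, was at 166.0 and 158 CPM in the knockout, against 210.1 and 205 CPM in the wild type. For both genes the groups were separate by more than the difference between libraries of a genotype. Their log2 fold changes were -0.37 ± 0.15 and -0.36 ± 0.14 (SE; unadjusted p = 0.029 and 0.031, adjusted p = 0.9999 each, edgeR). Neither passed the adjusted threshold. Hist3h2ba and Hist3h2a shared no run of 100 bases with another member. Shorter matches and other parts of the genome were not compared.

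**Figure D3:**
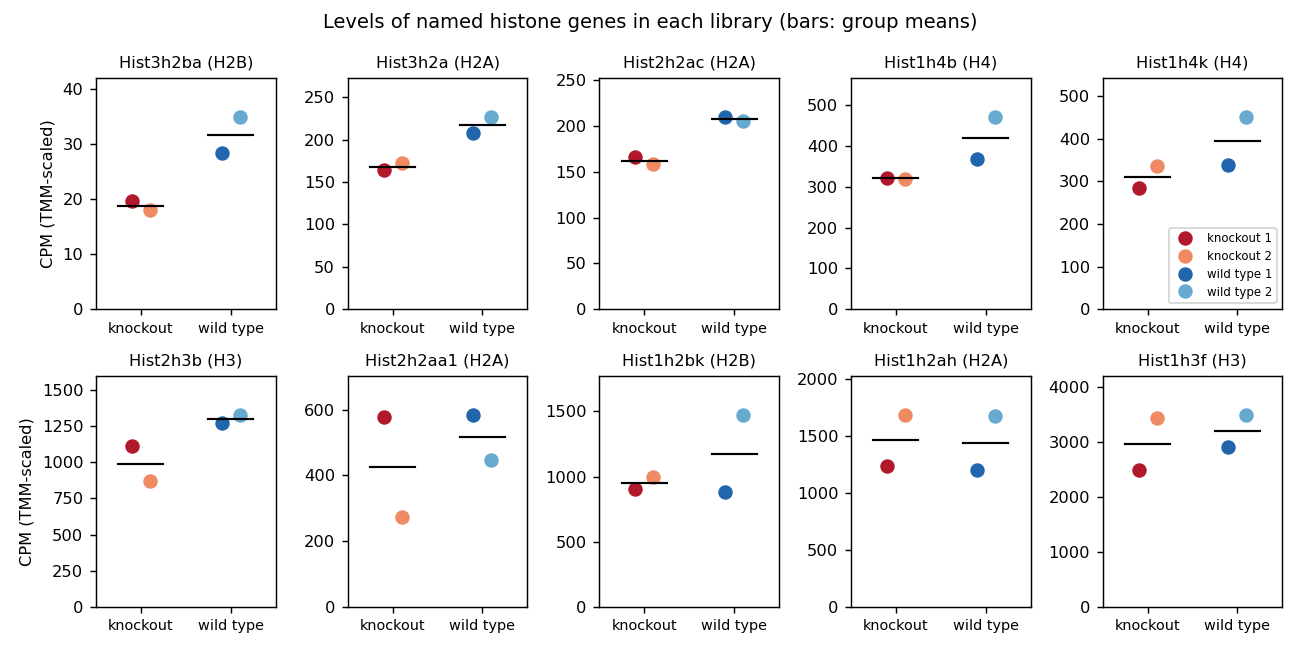
TMM-scaled CPM (vertical axes, each from 0) of named histone genes in each library, knockout left of wild type, with a point per library and a line at each group mean. Hist3h2ba has 19.7 and 17.9 CPM in the knockout and 28.3 and 34.9 CPM in the wild type, whereas the groups of Hist1h3f and Hist1h2ah overlap.

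The clusters can also be set side by side. Both knockout libraries were below both wild type libraries for 8 of the 13 tested members outside Hist1, and for 5 of 54 in Hist1, with the background of 14.8%. The 10 Hist2 genes held 0.557% and 0.370% of all counts in the knockout, against 0.606% and 0.566% in the wild type. Knockout replicate 2 was the low library here, while the 56 Hist1 genes held 3.92% and 4.64% in the knockout, against 4.085% and 5.205% in the wild type. Hist2h2aa1, near-identical to Hist2h2aa2, was at 576 and 273.8 CPM in the knockout, against 585 and 448 CPM in the wild type. Its log2 fold change was -0.28 ± 0.32 (SE), and the difference between its knockout libraries was larger than that between the genotypes. The Hist2 genes with separate groups include Hist2h3c1 and Hist2h3c2, whose counts matched to between 100.1% and 101.0%. In 5 pairs, these 2 genes among them, counts stayed within 10% of each other in every library and a gene was the other's closest member in sequence. Counting each such pair once left 62 tested members, 45 of them below 0 and 12 with separate groups. Members with much shared sequence but unlike counts were still counted singly. Hist2h3b and Hist1h4n, both with separate groups, shared 77.1% and 80.7% of their runs of 100 bases with another member.

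The median difference between libraries of a genotype was larger in size than the median fold change between genotypes, -0.12. These measures are unlike, since the former compares single libraries and the latter groups of 2. Both are medians of signed values, in which opposite directions cancel. The log2 difference of replicate 2 over replicate 1 (TMM-scaled CPM plus a pseudocount of 0.5) had a median of 0.36 over the members in the knockout, with 57 of 67 (85.1%) above 0, and of 0.41 in the wild type, with 62 of 67 (92.5%) above 0. Over all genes tested the medians were -0.03 and -0.00, with 46.8% and 49.9% above 0. Over the 2079 other genes with at least 100 CPM they were 0.10 in the knockout and 0.06 in the wild type. Of these genes 64.1% and 61.2% lay above 0. Most Hist2 genes departed from this, and the 10 had medians of -0.38 in the knockout and 0.05 in the wild type. The cluster was not uniform, since 3 of the 10 were above 0 in the knockout, up to 0.88. Near-identical copies weigh on these medians, Hist2h2aa1 with Hist2h2aa2 and Hist2h3c1 with Hist2h3c2. The H2B genes had the largest wild type median, 0.82, beside 0.46 in the knockout.

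**Figure D4:**
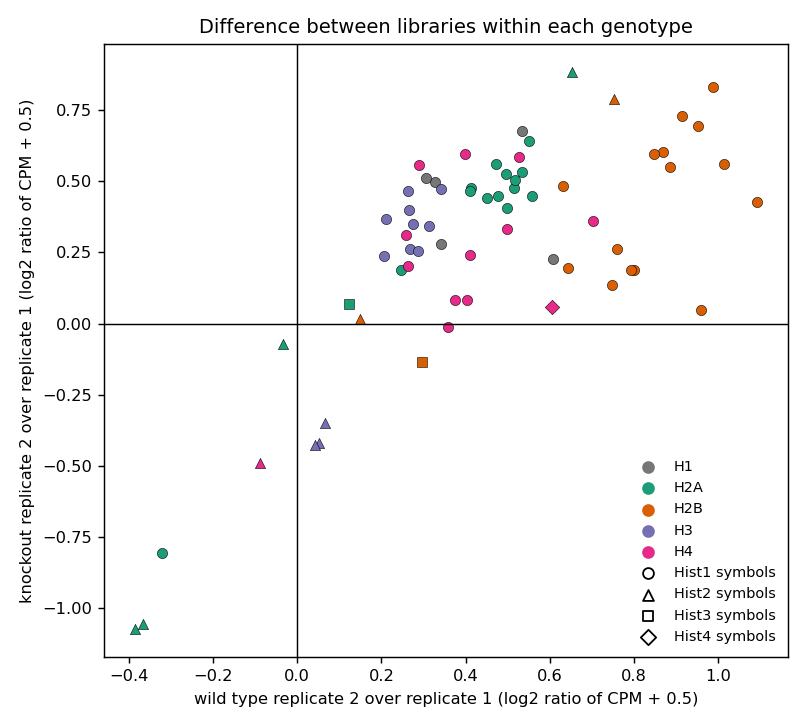
Log2 difference of replicate 2 over replicate 1 for each tested histone gene, in the knockout (vertical axis) and in the wild type (horizontal axis), with colour for the class and shape for the cluster. Most points lie above 0 on both axes, with medians of 0.36 in the knockout and 0.41 in the wild type. Most Hist2 genes lie lower in the knockout, with 3 of 10 above 0.

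Other RNAs without a poly(A) tail differed between the libraries in the same direction. Selection for poly(A) RNA is a point not given in the sources used here. Rpph1, the RNA of RNase P, was at 4549 and 7592 CPM in the knockout, against 6577 and 7402 CPM in the wild type, a log2 fold change of -0.20 ± 0.31 (SE). Rmrp, the RNA of RNase MRP, was at 2688 and 3931 CPM in the knockout, against 3096 and 3752 CPM in the wild type, under the first of its 2 identifiers. Of 12 such RNAs listed, 7 were matched by symbol and 6 identifiers were tested (Rpph1, Rny1, Rny3, Rnu12 and both identifiers of Rmrp). Replicate 2 was higher for 6 of 6 in both genotypes, with medians of 0.56 in the knockout and 0.28 in the wild type. Over all genes tested it was higher for 46.8% in the knockout and 49.9% in the wild type. A fold change below 0 was found for 5 of 6, against a background of 50.3%, and 0 were called. The 2 Rmrp identifiers had similar counts and fold changes (-0.049 and -0.045), so the same RNA may be counted under both. Rny1, Rny3 and Rnu12 were low, at 0.91 to 5.1 CPM. The part of this library difference in the histone values was not tested. Across the 67 members, GC content had a Spearman correlation of -0.07 with the difference between knockout libraries, -0.13 with that between wild type libraries and 0.02 with the log2 fold change, a description over genes that share these libraries.

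The machinery that makes and uses these histones was measured with 4 further lists, none with a called gene or one at an unadjusted p under 0.05 (backgrounds as above). For direction, 9896 of the 19912 genes tested lay above 0. Among the other genes with at least 100 CPM, 1290 of 2079 did, with a median of 0.04. Of 22 genes for histone mRNA transcription and processing, 15 had a log2 fold change above 0 and 7 below, with a median of 0.05. Slbp was at 77.6 and 89.4 CPM in the knockout, against 70.3 and 79.75 CPM in the wild type, and Casp8ap2 (FLASH), a partner of the U7 snRNP, had a log2 fold change of 0.22 ± 0.18 (SE). The cap-binding gene Ncbp1 had 0.16 ± 0.16. The knockout and wild type libraries of Slbp overlapped.

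Of 18 histone chaperones and related factors, 15 lay above 0, with a median of 0.07. Nasp, which holds soluble H3 and H4, had a log2 fold change of 0.19 ± 0.16 (SE), Atrx, of the H3.3 pathway, 0.18 ± 0.18, and Tonsl, which binds newly made H4, -0.26 ± 0.25. Of 26 genes expressed for S phase, 22 lay above 0, with a median of 0.05. Both medians were near the 0.04 of the other genes with at least 100 CPM. Ccne2, cyclin E2, had 0.31 ± 0.16, Lig1, the replicative DNA ligase, 0.21 ± 0.14, and Rrm2, a subunit of ribonucleotide reductase, -0.23 ± 0.17. Mcm2 stands in both lists. Without knockout replicate 2 the medians were 0.025 for the chaperones and -0.037 for the S phase genes, and without knockout replicate 1 that of the chaperones was 0.13.

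The replication-independent histones showed no called change either. Of 11 tested genes, 6 lay above 0 and 5 below, with a median of 0.04. H3f3a, which codes for H3.3, was at 608 and 776 CPM in the knockout, against 559.5 and 642 CPM in the wild type, a log2 fold change of 0.20 ± 0.20 (SE). The H2A variant genes H2afj and H2afy2 had log2 fold changes of -0.29 ± 0.17 and 0.25 ± 0.18. Of the 12 neural stem cell markers 5 lay above 0 and 7 below, with a median of -0.07. Among them, Slc1a3 had a log2 fold change of -0.30 ± 0.20 and Fabp7 one of 0.36 ± 0.28.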

How the data were processed

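The authors deposited whole-number read counts per Ensembl gene, in a file for each of the 4 libraries. The genome build GRCm39, featureCounts and STAR 2.7.10 are named per the submitters' processing notes. Settings for strand and multi-mapping were not given in the sources used here. Counts of overlapping or near-identical genes are uncertain for that reason, as are those of antisense genes, and members shared a median of 32.8% of their 100-base words with another member. Per the labels' protocols, cells were lysed in TRIzol and the library kit was NEBNext Ultra RNA.

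Symbols, gene types and transcripts came from GENCODE M21, and 2 H2A members (Hist1h2aj and Hist1h2al) are annotated as pseudogenes. Shares are member counts over the library total. Genes were filtered with filterByExpr (minimum count 10), scaled by TMM and tested with the edgeR 4.0.16 quasi-likelihood test (robust=TRUE, R 4.3.3), Benjamini-Hochberg adjusted over 19912 genes, called under 0.05. The script was tested on simulated data. Fold changes are log2 values, knockout over wild type, and intervals cover 95%. The upper limit for a count of 0 is 3 counts over the library total, and covers counting error only.

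Members and lists were chosen with earlier results of these data known. Named are Mettl4, the 3 most abundant members of each class, the 6 members with the smallest p, the highest and lowest fold change and up to 3 genes of each further list with the smallest p. A gene that this rule takes is not reported here. Hist2h2aa1, the members with separate groups and the H2B split were chosen after their values were seen. Alternatives were other scalings and filters, DESeq2 1.42.0, limma-voom 3.58.1, a replicate block, each library left out, and, added after seeing the data, pairs with like counts and sequence counted once.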

Additional observations from a re-analysis of the deposited data

How the results depend on the processing

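No histone member was called under any alternative run (other scalings, other low-count filters, the replicate block, each library left out, DESeq2 and limma-voom). The count of called genes over all genes was 1 in the report, and 41 with no low-count filter, 6 with DESeq2, and 1 to 47 with a library left out. The labels do not say whether libraries with the same replicate number were prepared together. Deviations of same-numbered libraries correlated at 0.294 over all genes and 0.723 over the members, with 2 pairs. With the replicate block 9 genes were called, 0 of them members, 18 members had an unadjusted p under 0.05 (26.9%, against 7.83% of all genes; 17 lower and 1 higher), 49 of 67 were below 0 with a median of -0.12, and the smallest adjusted p of a member was 0.111 (edgeR).

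With a library left out, the median log2 fold change ran from -0.54 to 0.28 for H2B, -0.38 to 0.028 for H4, 0.025 to 0.13 for chaperones, -0.037 to 0.11 for S phase genes and -0.080 to -0.049 for stem cell markers. Left-out libraries turned the direction of single genes, with log2 fold changes from -0.30 to 0.051 for Hist1h1b, -0.28 to 0.23 for Hist1h1c, -0.24 to 0.38 for Hist1h1d, -0.21 to 0.28 for Hist1h2ag, -0.22 to 0.29 for Hist1h2ah, -0.25 to 0.24 for Hist1h2ao, -0.64 to 0.12 for Hist1h2bk, -0.64 to 0.17 for Hist1h2bq and Hist1h2br, -0.24 to 0.83 for Hist1h2bb, -0.365 to 0.10 for Hist1h3f, -0.32 to 0.075 for Hist1h3b, -0.30 to 0.045 for Hist1h3d, -0.28 to 0.10 for Hist1h4m, -0.33 to 0.26 for Hist1h4d, -0.03 to 0.43 for Casp8ap2, -0.62 to 0.12 for Rpph1, -0.49 to 0.16 for Rny3, -0.23 to 0.79 for Rny1 and -0.036 to 0.67 for Fabp7. Values near 0 also turned: Hist1h1c to -0.018 with library totals, -0.00095 with a filter of 1 CPM, -0.013 with the block and -0.0099 with limma-voom. Hist1h2ao turned to -0.0092 with library totals. Hist1h4d turned to 0.0079 with DESeq2 and its size factors, 0.0022 with no filter and 0.0028 with factors from protein-coding genes. The cause was not tested. The 95% interval of a member's log2 fold change reached a median of 0.53 to either side.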
